A study of Enchytraeus crypticus with 30 samples.

Results

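The 6 array probes described here belong to *Enchytraeus crypticus*, a small white soil worm used in standard ecotoxicity tests. They are the probes that stood at least 0.8 above control on the log2 scale in worms exposed to the EC50 of nickel nitrate (NiNO3), at day 3 and at day 7, and within 0.4 of control in worms exposed to the EC50 of nickel nanoparticles (Ni-NPs) at both days. Of the 43750 gene probes on the array, 24653 were read as positive and significant on every one of the 30 arrays and were analysed, and these 6 are the ones among them that met the rule. The files name them contig02990, contig16981, contig18692, GYUW2K401BTC50, GYUW2K401EN8C0 and GYUW2K402GK2UM. All values are log2 of the processed spot signal minus the median of the 24653 probes on the same array, so that 0 is the level of the median probe and a difference of 1 is a doubling. The members were chosen by the means of the EC50 and control arrays, and the values of those arrays are given below as a description, without a test.

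Adult worms were kept without food in LUFA 2.2, a natural standard soil, for 3 or 7 days. The exposed groups were NiNO3 at the EC20 and at the EC50, added in water, Ni-NPs at the EC20 and at the EC50, added as a dry powder, and the controls, in soil with no nickel added, at both days. The EC20 and EC50 are the concentrations at which reproduction drops by 20% and by 50%, so by these names the forms were matched by effect and not by the amount of nickel in the soil. That match was not checked here, and the study's methods list the same concentrations for Ni-NPs as for the copper nanoparticles of its other experiments. Each of the 10 conditions had 3 biological replicates, each a pool of 20 animals on an array of its own, and both forms were set against the same control arrays. Whole animals were used, so fewer cells of a type and less RNA per cell cannot be told apart.

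Nickel nitrate is a soluble salt that gives free nickel ions as it dissolves, whereas metallic nanoparticles release ions from their surface over time and can also be taken up as particles. In mammalian cells, nickel ions enter partly through transporters of other divalent metals, bind to histidine and cysteine residues of proteins, and are known to activate genes of the hypoxia response and of metal and oxidative stress defence. Which of these roles, if any, the 6 probes stand for was not analysed here, because the files name probes by their sequence of origin and hold no gene names. For the same reason the tissue was not checked against marker genes. The names show 3 members from assembled contigs and 3 from single sequencing reads, against 50.9% contig names among all analysed probes.

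Between 29661 and 40433 probes per array were positive and significant, and 44.9% to 76.3% were well above background. The arrays lay on 10 slides, with 22, 5 and 3 arrays on scan days 1, 2 and 3, and their number limits how precise any value is. Of the 6 members, 4 were well above background on all 30 arrays. The other two were contig16981, well above background on 28 arrays, and GYUW2K401EN8C0, well above background on 23 arrays, 4 of the 6 control arrays among them. Every member was well above background on at least 1 array of each condition. None of the member spots was saturated or carried an outlier flag. The median processed signal over the 30 arrays was low for contig02990 (22.5), contig16981 (34.4) and GYUW2K401EN8C0 (20.9). It was 206 for GYUW2K402GK2UM, 1078 for GYUW2K401BTC50 and 1688 for contig18692.

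**Figure D1:**
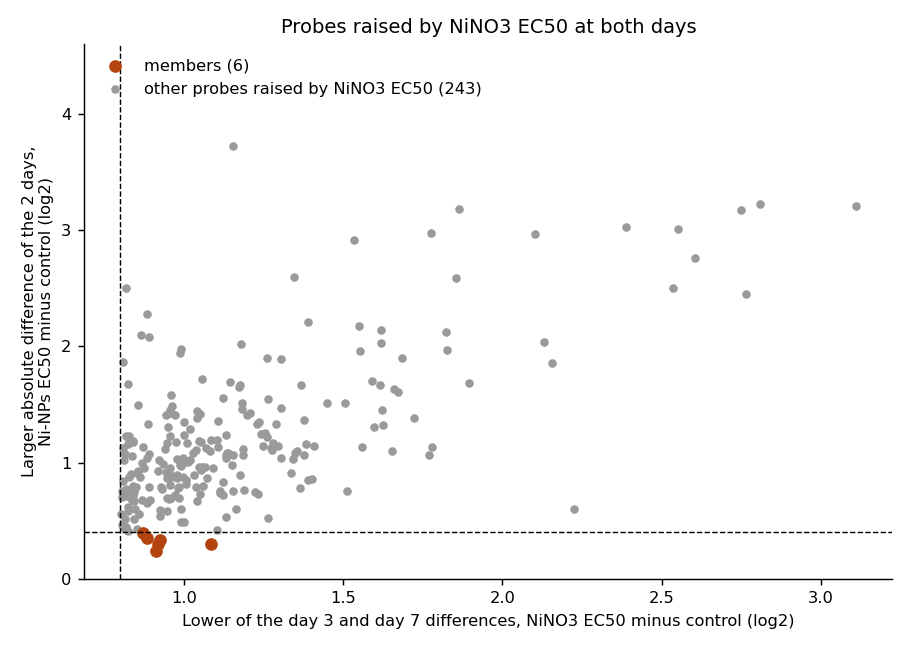
The 249 probes at least 0.8 above control in NiNO3 EC50 at both days, with the lower of their NiNO3 EC50 differences on the horizontal axis and the larger absolute Ni-NPs EC50 difference on the vertical axis, both in log2 units. Dashed lines mark the limits of 0.8 and 0.4, and the 6 members lie in the corner between them.

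The members are a small remainder of the probes that NiNO3 EC50 placed above control. At least 0.8 above control at both days were 249 probes, and 12909 probes lay within 0.4 of control in Ni-NPs EC50 at both days. Of the 249, 89 were also at least 0.8 above control in Ni-NPs EC50 at both days and 194 were at least 0.4 above it at both days. Within 0.4 of control in Ni-NPs EC50 were 41 of the 249 at day 3, 19 at day 7 and 6 at both days. The medians of the 249 probes in Ni-NPs EC50 were 0.80 above control at day 3 and 0.91 at day 7. In the mirrored selections, 2 probes stood at least 0.8 above control in Ni-NPs EC50 and within 0.4 in NiNO3 EC50, and 5 probes stood at least 0.8 below control in NiNO3 EC50 and within 0.4 in Ni-NPs EC50.

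Several members lie close to the limits. Nearest inside both limits were contig02990, with a lower NiNO3 EC50 difference of 0.87 and a largest Ni-NPs EC50 difference of 0.40 (0.395 before rounding), and GYUW2K401BTC50, with 0.88 and 0.35. Just outside the limit on NiNO3 were contig02513 with a lower difference of 0.80 (0.795) and GYUW2K401CR6GN with 0.78. Just outside the limit on Ni-NPs were contig16751, with a largest difference of 0.41 beside a lower NiNO3 EC50 difference of 0.82, and contig08977, with 0.42 beside 1.10. The plot of the 249 probes shows that the members' lower NiNO3 EC50 differences, between 0.87 and 1.09, lie in the low part of the range of these probes.

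**Figure D2:**
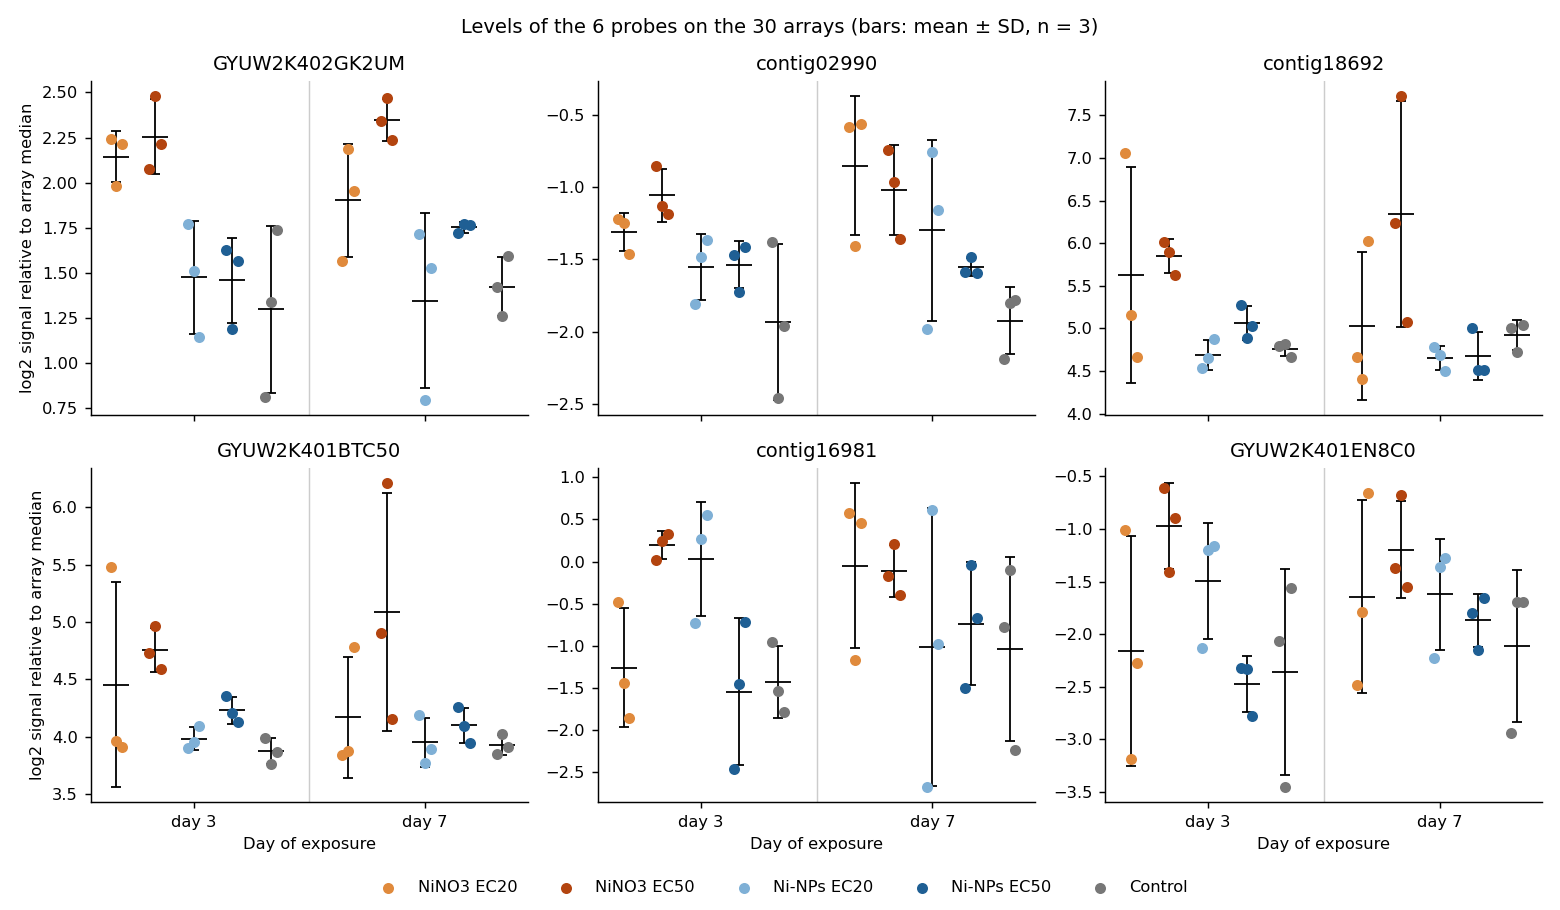
Level of each member (log2 signal relative to the array median) on the 30 arrays, as coloured points, with the mean and SD of 3 arrays as black bars, at day 3 on the left and day 7 on the right of each panel. Each panel has its own vertical scale. The points of GYUW2K402GK2UM, contig02990, contig18692 and GYUW2K401EN8C0 in NiNO3 EC50 lie above those of Ni-NPs EC50 and control at both days. The rule that chose the members read these arrays and favours this separation. Single high arrays in the NiNO3 conditions appear for contig18692 and GYUW2K401BTC50.

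GYUW2K402GK2UM stood above both control and Ni-NPs EC50 of the same day on every NiNO3 EC50 array. So did contig02990, contig18692 and GYUW2K401EN8C0, with the smallest gap over Ni-NPs EC50, 0.08, for contig18692 at day 7. The rule read these arrays and favours such a separation, and the share of all probes that show it was not counted. In the 3 replicates per condition of GYUW2K402GK2UM, the SD lay between 0.0295 and 0.486. In NiNO3 EC50 its level was 2.07, 2.48 and 2.21 at day 3, against 0.81, 1.34 and 1.74 in control, and 2.34, 2.47 and 2.24 at day 7, against 1.42, 1.26 and 1.59 in control. The groups did not overlap at either day. In Ni-NPs EC50 the level was 1.62, 1.19 and 1.56 at day 3, within the range of the control arrays, and 1.72, 1.77 and 1.77 at day 7, where all 3 arrays lay above the control arrays although the mean difference was 0.33. The means were 2.26 ± 0.206 in NiNO3 EC50 and 1.30 ± 0.464 in control at day 3, and 2.35 ± 0.117 in NiNO3 EC50 and 1.42 ± 0.165 in control at day 7 (SD, n = 3 each), which are differences of 0.96 and 0.93. At the EC20 of NiNO3, which the rule did not read, the level was 2.24, 1.98 and 2.21 at day 3, above all control arrays, and 1.57, 2.19 and 1.95 at day 7, where 2 of the 3 arrays were above all control arrays. At the EC20 of Ni-NPs it was 1.77, 1.51 and 1.14 at day 3 and 1.71, 0.79 and 1.53 at day 7, and these arrays overlapped with the control arrays at both days.

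For contig02990 the NiNO3 EC50 arrays were also separate from control, and so were the Ni-NPs EC50 arrays at day 7. In NiNO3 EC50 its level was -0.85, -1.13 and -1.19 at day 3, against -1.38, -2.46 and -1.96 in control, and -0.74, -0.97 and -1.36 at day 7, against -2.19, -1.80 and -1.78 in control. Both comparisons were without overlap. In Ni-NPs EC50 it was -1.47, -1.72 and -1.42 at day 3, all within the range of the control arrays, and -1.59, -1.48 and -1.59 at day 7, all above the control arrays of that day. The differences from control in Ni-NPs EC50 were 0.40 and 0.37, the highest pair among the members. At the EC20 it stood 0.62 and 1.07 above control in NiNO3 and 0.38 and 0.62 above control in Ni-NPs, at day 3 and at day 7. Its position relative to control was thus on the same side in all 8 exposures, with the largest value, 1.07, in NiNO3 EC20 at day 7, where the arrays read -0.59, -1.40 and -0.57.

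The members contig18692 and GYUW2K401BTC50 had high values on single arrays. The level of contig18692 in NiNO3 EC50 was 6.02, 5.90 and 5.63 at day 3, against 4.80, 4.82 and 4.67 in control, and 6.24, 7.72 and 5.08 at day 7, against 5.01, 4.72 and 5.04 in control. All NiNO3 EC50 arrays were above control, but at day 7 the lowest of them exceeded the highest control array by only 0.04, and the difference of 1.42 came with an SD of 1.33 in NiNO3 EC50 and of 0.175 in control. In Ni-NPs EC50 the level was 5.28, 4.89 and 5.02 at day 3, just above all 3 control arrays, and 5.001, 4.51 and 4.51 at day 7, with a mean 0.25 below control. At the EC20 of NiNO3 it was 7.06, 5.16 and 4.67 at day 3 and 4.66, 4.40 and 6.02 at day 7, so that 1 array stood high at each day. The lowest array at day 3 was level with the lowest control array to 2 decimals, and the other 2 arrays at day 7 were below all control arrays of that day. The SD over replicates lay between 0.200 and 1.33 in the 4 NiNO3 conditions and between 0.0831 and 0.280 in the 4 Ni-NPs conditions and the controls.

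GYUW2K401BTC50 followed the same arrays. In NiNO3 EC50 it was at 4.73, 4.97 and 4.59 at day 3, against 3.99, 3.76 and 3.87 in control, and at 4.91, 6.21 and 4.15 at day 7, against 3.85, 4.03 and 3.91 in control. In Ni-NPs EC50 it was at 4.36, 4.21 and 4.13 at day 3, above all control arrays by a mean of 0.35, and at 4.26, 4.09 and 3.95 at day 7, overlapping with control. In NiNO3 EC20 it was at 5.48, 3.96 and 3.91 at day 3 and at 3.84, 3.88 and 4.78 at day 7. The high arrays of this probe, replicate 1 of NiNO3 EC20 at day 3, replicate 3 of NiNO3 EC20 at day 7 and replicate 2 of NiNO3 EC50 at day 7, were those of contig18692 as well. Over the deviations of the 30 arrays from their condition means, the correlation of the 2 probes was r = 0.96 (Spearman's rho = 0.78), and r = 0.92 without the 2 arrays farthest from the median of contig18692. Still in that value were the high replicate 3 of NiNO3 EC20 at day 7 and the low replicate 3 of NiNO3 EC50 at day 7. The deviation of the latter was -1.27 for contig18692 and -0.94 for GYUW2K401BTC50. The 2 probes share their arrays, and the other 14 pairs of members gave r between -0.62 and 0.63. The 3 high arrays lay on different slides (1, 7 and 6), and 0.629%, 2.56% and 0.686% of all probes stood at least 1 above their condition mean on them, against a range of 0.353% to 3.72% over all arrays.

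The members that were not well above background on every array, contig16981 and GYUW2K401EN8C0, also stood above control in an exposure to Ni-NPs. In NiNO3 EC50 at day 3, contig16981 was at 0.02, 0.25 and 0.33, against -0.96, -1.54 and -1.79 in control, a difference of 1.62, the highest value of any member in any exposure. At day 7 it was at -0.17, 0.21 and -0.39, against -0.78, -0.10 and -2.23 in control, and these groups overlapped. In Ni-NPs EC50 it was at -2.46, -1.45 and -0.72 at day 3 and at -1.50, -0.04 and -0.67 at day 7, close to control in the mean and widely spread. At the EC20 of Ni-NPs at day 3, however, it was at -0.73, 0.27 and 0.55, all above the control arrays, with a mean difference of 1.46, against a difference of 0.17 at the EC20 of NiNO3 at the same day. At day 7 the EC20 differences were 0.99 in NiNO3 and 0.02 in Ni-NPs.

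GYUW2K401EN8C0 had a similar profile. In NiNO3 EC50 it was at -0.61, -1.41 and -0.89 at day 3, against -2.07, -3.45 and -1.56 in control, and at -1.37, -0.68 and -1.55 at day 7, against -2.94, -1.70 and -1.69 in control, without overlap at either day. In Ni-NPs EC50 the differences from control were -0.12 at day 3 and 0.24 at day 7. At the EC20 of Ni-NPs the differences were 0.86 and 0.49, above the 0.20 and 0.47 at the EC20 of NiNO3. Both members were thus at least 0.8 above control in Ni-NPs EC20 at day 3, which goes against a description of the 6 probes as raised by NiNO3 only, and they are called here by the rule that chose them. The 3 Ni-NPs EC20 arrays of that day were scanned on 3 different days, and the 1 array of the first scan day stood 0.52 (contig16981) and 0.62 (GYUW2K401EN8C0) above the 2 control arrays of that scan day. Leaving out 1 array kept contig16981 between 1.20 and 1.84 above control, whereas GYUW2K401EN8C0 came to 0.31 without replicate 2 of the control, to 0.71 without replicate 2 of Ni-NPs EC20 and to 0.69 without its replicate 3. The SD over replicates in control was 0.981 and 0.719 for GYUW2K401EN8C0 and 0.426 and 1.09 for contig16981 at day 3 and at day 7.

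**Figure D3:**
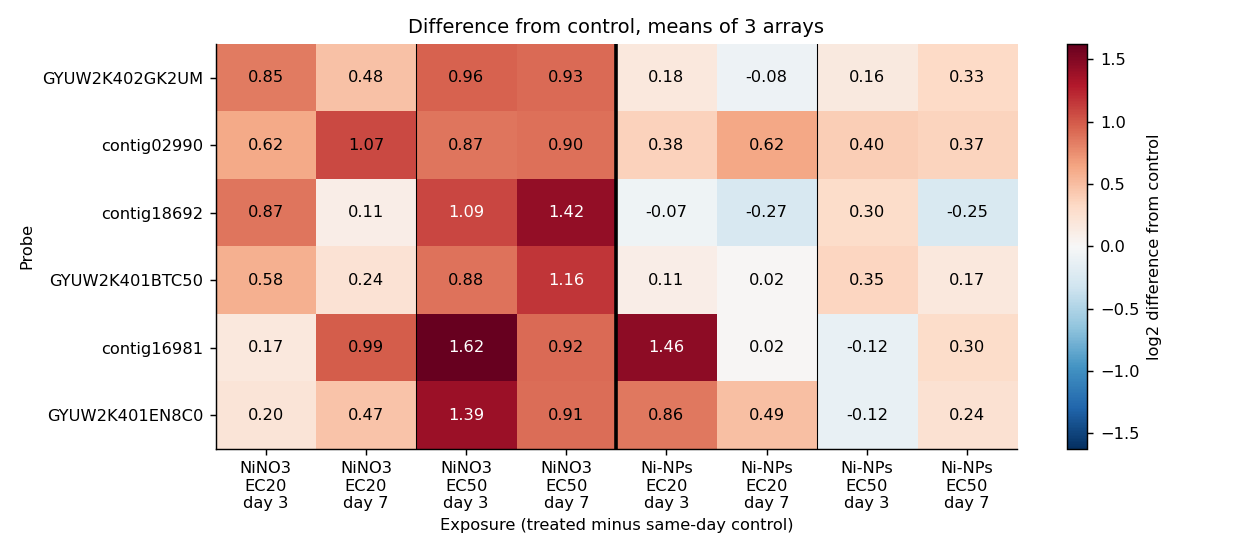
Difference from the same-day control (log2, means of 3 arrays) of the 6 members in the 8 exposures, with NiNO3 on the left and Ni-NPs on the right of the thick line. The NiNO3 EC50 and Ni-NPs EC50 columns were used to choose the members, whereas the EC20 columns were not. The largest EC20 value is 1.46, of contig16981 in Ni-NPs EC20 at day 3.

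Across the exposures, the members were counted at the rule's own size of 0.8. In NiNO3 EC20, 2 of the 6 reached it at day 3 and 2 at day 7, where 2.27% and 3.03% of all analysed probes did. In Ni-NPs EC20, 2 reached it at day 3 and 0 at day 7, where 2.90% and 2.77% of all probes did. These counts rested on single arrays. Without replicate 1 of NiNO3 EC20 at day 3 the count of that day was 1, with contig18692 at 0.15 in place of 0.87, and at day 7 it was 1 without replicate 3 of NiNO3 EC20 or of the control. Without replicate 2 or replicate 3 of NiNO3 EC20 at day 3, the count of that day was 3. In Ni-NPs EC20 the count was 1 at day 3 without the 3 arrays named above for GYUW2K401EN8C0, each in turn, and 2 at day 7 when the first Ni-NPs EC20 replicate was left out. For the exposures that the rule used, all 6 and 0 are fixed by it, with 3.24% and 3.59% of all probes in NiNO3 EC50 and 3.22% and 2.36% in Ni-NPs EC50, at day 3 and at day 7. The median difference of the members was 0.60 at day 3 and 0.47 at day 7 in NiNO3 EC20, and 0.28 at day 3 and 0.02 at day 7 in Ni-NPs EC20, against medians between -0.06 and 0.00 over all probes. Leaving out 1 exposed or control array, the medians in NiNO3 EC20 ran from 0.11 to 0.77 at day 3 and from 0.22 to 0.66 at day 7. The lowest came without replicate 1 of NiNO3 EC20 at day 3 and without its replicate 3 at day 7, where 4 and 3 of the members were above control. In Ni-NPs EC20 the medians ran from 0.16 to 0.41 at day 3 and from 0.01 to 0.35 at day 7, leaving out 1 exposed or control array. With all arrays, all 6 members were above control in the mean in NiNO3 EC20 at both days, where 44.5% and 45.1% of all probes were, and 5 and 4 of the 6 were in Ni-NPs EC20, where 42.8% and 49.7% of all probes were. These comparisons share the control arrays with the rule, so they were not tested. They also move with the scaling, since in Ni-NPs EC20 at day 3 the median of all probes was 0.20 above control with SVCD normalization and 0.72 with spike-in scaling, and in NiNO3 EC20 at day 3 it was -0.08 and 0.41.

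Non-overlap with control was counted as well. All 3 exposed arrays lay above all 3 control arrays for 1 member in NiNO3 EC20 at day 3 (GYUW2K402GK2UM) and for 1 at day 7 (contig02990), against 3.03% and 3.81% of all probes. In Ni-NPs EC20 this held for 1 member at day 3 (contig16981) and 0 at day 7, against 5.76% and 4.39% of all probes. The rule read the EC50 arrays and favours non-overlap in NiNO3 EC50, so the EC50 counts cannot be compared with those at the EC20. In NiNO3 EC50 non-overlap held for 6 and 5 members, against 6.62% and 9.26% of all probes, and in Ni-NPs EC50 for 2 and 2 members, against 11.7% and 5.15%, at day 3 and at day 7. In Ni-NPs EC50 these were contig18692 and GYUW2K401BTC50 at day 3 and contig02990 and GYUW2K402GK2UM at day 7, so 4 of the members had a day at which every Ni-NPs EC50 array stood above control by a small amount.

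The question whether the forms differed at the EC20 can be put to arrays that did not choose the members. NiNO3 EC20 was compared with Ni-NPs EC20 directly, on 12 arrays, with limma in a fit to all 30 arrays, with Benjamini-Hochberg adjustment over the 24653 probes. No member passed a false discovery rate of 0.05 at day 3, at day 7 or in the mean of the days. Over all probes, 0.00% passed it in either direction at day 3, 0.0203% were higher and 0.0406% lower in NiNO3 EC20 at day 7, and 0.0608% were higher and 0.122% lower in the mean of the days. These are 0 probes at day 3, 5 and 10 at day 7, and 15 and 30 in the mean of the days. At an unadjusted p under 0.05, 1 member was higher in NiNO3 EC20 in each case, GYUW2K402GK2UM, where 4.02%, 2.54% and 4.57% of all probes were higher. At day 3 this held with quantile and 75th percentile normalization. With SVCD, with spike-in scaling and without a filter on signal, 0 members were higher at day 3 and 1 was lower, contig16981. Lower at that threshold were 5754 and 1220 of 24653 probes with the first pair, and 1572 of 43750 without the filter.

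**Figure D4:**
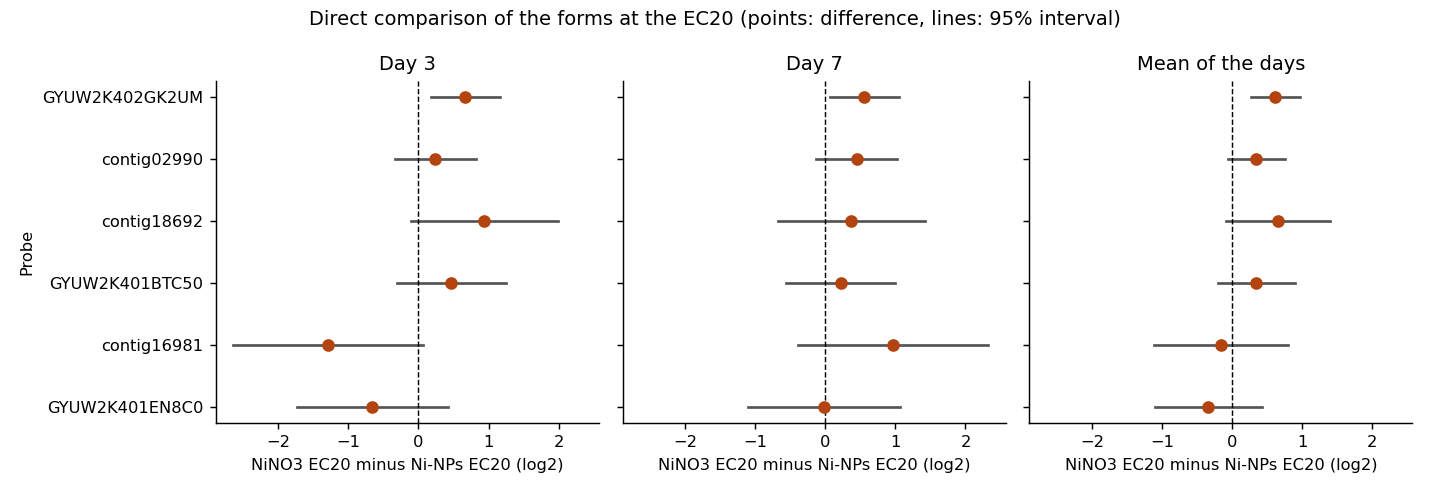
Difference between NiNO3 EC20 and Ni-NPs EC20 (log2) of the 6 members at day 3, at day 7 and in the mean of the days, with 95% intervals from limma as lines and 0 as a dashed line. For GYUW2K402GK2UM the interval of the mean of the days runs from 0.26 to 0.96, and for the other members it includes 0.

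GYUW2K402GK2UM stood 0.61 higher in NiNO3 EC20 than in Ni-NPs EC20 in the mean of the days, with a standard error of 0.170 and a 95% interval from 0.26 to 0.96 (limma, unadjusted p = 0.0014, adjusted p = 0.14). With SVCD it was 0.45, with an interval from 0.08 to 0.81 (limma, unadjusted p = 0.019, adjusted p = 0.15). With spike-in scaling it was 0.37, with an interval from -0.33 to 1.08 (limma, unadjusted p = 0.29, adjusted p = 0.77). Normexp correction, added after seeing the data, gave 0.40, with an interval from 0.04 to 0.76 (limma, unadjusted p = 0.032, adjusted p = 0.67). The difference was 0.67 at day 3, where all 3 NiNO3 arrays lay above all 3 Ni-NPs arrays, as for 6.54% of all probes, and 0.56 at day 7, where the arrays overlapped, as they did for the other members, while 2.35% of all probes had all NiNO3 arrays above. For contig18692 the mean of the days was 0.66 higher in NiNO3 EC20, with an interval from -0.09 to 1.40 (adjusted p = 0.50 from limma), and leaving out replicate 1 of NiNO3 EC20 at day 3 brought it to 0.30. For contig02990 and GYUW2K401BTC50 it was 0.34 in both, with intervals from -0.07 to 0.76 and from -0.21 to 0.90, and without that replicate GYUW2K401BTC50 came to 0.09. GYUW2K401EN8C0 was at -0.34, with an interval from -1.10 to 0.42. With scan day as a block, the negative values of contig16981 and GYUW2K401EN8C0 turned to 0.21 and 0.08.

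The 2 days differed most for contig16981. It stood 1.29 lower in NiNO3 EC20 than in Ni-NPs EC20 at day 3, with -0.48, -1.44 and -1.86 against -0.73, 0.27 and 0.55, and 0.97 higher at day 7, with 0.57, -1.17 and 0.46 against -2.68, 0.61 and -0.98. The arrays of the 2 forms overlapped at both days. The change between the days was 2.25, with an interval from 0.33 to 4.18, and it did not pass the threshold after adjustment over all probes (limma, unadjusted p = 0.023, adjusted p = 0.80). No member passed it, and 0.00% of all probes did in either direction, with 5.86% at an unadjusted p under 0.05. In the mean of the days contig16981 was at -0.16, with an interval from -1.12 to 0.80.

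The members were also set beside the other 243 probes that NiNO3 EC50 placed above control, in the direct EC20 comparison. In the mean of the days, 4 of the 6 members and 170 of the 243 other probes were higher in NiNO3 EC20 than in Ni-NPs EC20 (66.7% and 70.0%), against 48.7% of all analysed probes. The medians were 0.34 over the members, 0.29 over the other 243 and -0.01 over all probes. At day 3, 4 of the members and 124 of the other 243 were higher in NiNO3 EC20, against 51.7% of all probes, with medians of 0.36 over the members and 0.04 over the other 243. At day 7, 5 of the members and 212 of the other 243 were higher, against 46.7% of all probes, with medians of 0.41 over the members and 0.53 over the other 243. Without replicate 1 of NiNO3 EC20 at day 3, the median of the members came to 0.07 at day 3 and 0.19 in the mean of the days. Without replicate 3 of NiNO3 EC20 at day 7 it came to 0.11 at day 7, with 3 members higher, and to 0.24 when the first Ni-NPs EC20 replicate of that day was left out instead. SVCD normalization moved the median of all probes at day 3 to -0.29 and that of the members to 0.05, and spike-in scaling moved them to -0.31 and 0.03. In the mean of the days the median of the members was 0.18 with SVCD and 0.10 with spike-in scaling, against -0.18 and -0.25 over all probes, and it was 0.52 over the 4 members well above background on all arrays. No difference between the members and the other 243 probes was tested.

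The arrays of NiNO3 EC20 were mostly scanned on the first day and those of Ni-NPs EC20 mostly on later days. On the first scan day lay 3 arrays of NiNO3 EC20 and 1 of Ni-NPs EC20 at day 3, and 2 of NiNO3 EC20 and 1 of Ni-NPs EC20 at day 7. Within that scan day GYUW2K402GK2UM was 0.37 higher in NiNO3 EC20 at day 3 and 0.16 higher at day 7, contig02990 was 0.50 and 0.98 higher, and contig18692 was 1.09 higher at day 3 and 0.25 lower at day 7. GYUW2K401BTC50 was 0.55 higher and 0.33 lower, contig16981 was 0.53 lower and 2.38 higher, and GYUW2K401EN8C0 was 0.02 lower and 0.09 higher, at day 3 and at day 7. With scan day as a block in limma, GYUW2K402GK2UM was 0.58 higher in NiNO3 EC20 in the mean of the days, with an interval from 0.19 to 0.97 (unadjusted p = 0.0053, adjusted p = 0.22), and no member passed the threshold. All 6 members then had a difference above 0, with a median of 0.42, against a median of -0.03 over all probes. The share of all probes above 0 was not counted in that fit. For the rule itself, the arrays of the first scan day alone gave 9 probes, with all 6 members among them. Of the arrays that the rule read, this left out only 1 control and 1 NiNO3 EC50 array at day 3 and 1 Ni-NPs EC50 array at day 7. The remaining arrays had chosen the members, so this count is not a separate check on scan day.

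**Figure D5:**
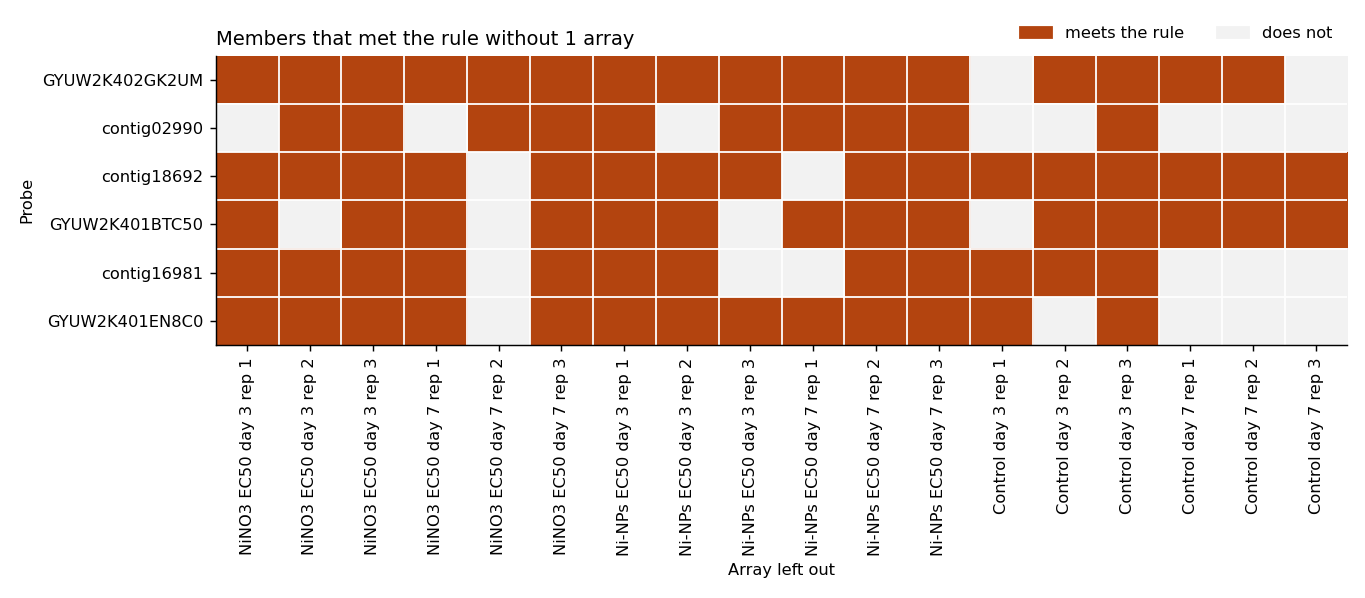
Members (rows) that met the rule when 1 of the 18 EC50 and control arrays (columns) was left out, with filled cells for those that met it. GYUW2K402GK2UM and contig18692 met it in 16 of 18 cases and contig02990 in 10.

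Membership itself rested on few arrays for most members. Leaving out 1 of the 18 arrays that the rule read, GYUW2K402GK2UM and contig18692 met the rule in 16 cases, GYUW2K401BTC50 in 14, GYUW2K401EN8C0 in 13, contig16981 in 12 and contig02990 in 10. All 6 members met it together in 6 of the 18 cases, and the number of probes that met it ran from 3 to 10. Without replicate 2 of NiNO3 EC50 at day 7, on which contig18692 and GYUW2K401BTC50 were highest, 3 probes met it and contig02990 and GYUW2K402GK2UM were the members among them. Without replicate 3 of the control at day 7, 3 probes met it as well, with contig18692 and GYUW2K401BTC50 among them, and without replicate 3 of Ni-NPs EC50 at day 7 there were 10, all 6 members included.

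The normalization between arrays also changed which probes met the rule. SVCD normalization, the study's own method, moved the median of all probes in Ni-NPs EC50 at day 7 to 0.22 above control, against -0.03 with the median of each array, and in NiNO3 EC50 to 0.14 at day 3 and 0.11 at day 7, against -0.05 and -0.04. With it 2 probes met the rule, of the members only contig18692, and the largest Ni-NPs EC50 differences of the other 5 members were between 0.45 and 0.61. Scaled to the spike-in transcripts, with medians of all probes from 0.10 above control in Ni-NPs EC50 at day 3 to 0.37 in NiNO3 EC50 at day 3, 17 probes met the rule and 0 of the members did. In both cases the lower NiNO3 EC50 difference of every member stayed above 0.8, at 1.05 to 1.27 with SVCD and at 1.29 to 1.50 with the spike-ins. Both scalings thus moved the NiNO3 EC50 and the Ni-NPs EC50 differences of all probes upward at both days, the members with them. With normexp on the median signal, added after seeing the data, the lower NiNO3 EC50 difference stayed above 0.8 only for contig18692 (1.07). It was 0.21 for contig02990, 0.26 for GYUW2K401EN8C0, 0.31 for contig16981, 0.48 for GYUW2K402GK2UM and 0.74 for GYUW2K401BTC50. This correction adds an offset of 50 to every signal, which shrinks log2 differences, most of all those of weak probes. The median processed signal was 22.5 for contig02990, 34.4 for contig16981 and 20.9 for GYUW2K401EN8C0. Their small values with normexp therefore cannot be read as an absent difference.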

How the data were processed

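The members and all comparisons were chosen with earlier results of these data known. The authors hybridized RNA of each replicate to a 1-colour Agilent array, and the deposited intensity is the processed signal of Agilent Feature Extraction, background-subtracted and detrended, linear, with no normalization across arrays. A deposited summary table repeats these intensity values in rounded form (largest log2 gap 0.0072). Labels gave the conditions. Control spots were left out, probes positive and significant on all 30 arrays were kept (24653 of 43750), and the array median was subtracted from log2 values. Differences are exposed minus same-day control. limma 3.58.1 in R 4.3.3 fitted one mean per condition to all arrays and was tested on simulated data. All members are named, with the nearest probes on either side of each limit. Alternatives were quantile, 75th percentile, SVCD (the study's code) and spike-in scaling (7 of 10 transcripts), signal filters and the deposited table. Further ones were slide, scan day and replicate blocks, the EC20 arrays alone, and leaving out each array. The methods' t-test was run at single days, with a linear fit without limma's moderation for the comparisons that span both days. Added after seeing the data were normexp on the median signal (offset 50), leaving out probes with outlier flags, and the first scan day alone.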

Additional observations from a re-analysis of the deposited data

How the results depend on the processing

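The number of probes that met the rule was 6, and it was 10 with quantile normalization, 12 with the 75th percentile, 2 with SVCD normalization, 17 with spike-in scaling, 27 without a filter on signal and 2 with normexp on the median signal, which was chosen after seeing the data. Of the 6 members, 5, 6, 1, 0, 1 and 1 were among these. Leaving out 1 array gave 3 to 10 probes. No member passed the threshold in any of the 4 EC20 comparisons under any alternative, and the adjusted p of limma for GYUW2K402GK2UM in the mean of the days ran from 0.064 to 0.77. With the methods' t-test at day 3 and at day 7, 0 members passed after adjustment. For the mean of the days and the change between the days, a linear fit to all 30 arrays without limma's moderation replaced it. There 0 members passed as well. At an unadjusted p under 0.05, the t-test gave 1 and 0 members higher in NiNO3 EC20 at day 3 and at day 7. The linear fit gave 1 in the mean of the days. Of all 24653 probes, 636, 226 and 1033 were higher at that threshold. Over all probes in the mean of the days, 15 were higher and 30 lower in NiNO3 EC20 with limma, and 19 and 54 with that linear fit. The counts were 37 and 839 with SVCD and 0 and 0 with the 12 EC20 arrays alone, where 658 and 870 had an unadjusted p under 0.05. Normexp on the mean signal was not run, because the files used here do not hold that signal.

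Signs changed in these EC20 differences, the cause of which was not tested. At day 3, contig02990 was at -0.0627 with SVCD and -0.0889 with spike-in scaling. At day 7, GYUW2K401EN8C0 was at 0.0447 with the 75th percentile and 0.27 with scan day as a block. In the mean of the days, scan day as a block gave 0.21 for contig16981 and 0.0799 for GYUW2K401EN8C0. For day 7 minus day 3, GYUW2K401BTC50 was at 0.0199 with SVCD, and GYUW2K402GK2UM was at 0.16 with SVCD, 0.0647 with spike-in scaling and 0.0462 with normexp.

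Leaving out 1 array changed further signs. At day 3, GYUW2K401BTC50 ran from -0.0461 (without NiNO3 EC20 day 3 replicate 1) to 0.74. At day 7, without NiNO3 EC20 day 7 replicate 3, contig18692 was at -0.12 and GYUW2K401BTC50 at -0.0892, with highest values of 0.68 and 0.38, and GYUW2K401EN8C0 ran from -0.51 to 0.40, above 0 without NiNO3 EC20 replicate 1 or 2 or Ni-NPs EC20 replicate 2 or 3. In the mean of the days, contig16981 ran from -0.58 to 0.25 (without Ni-NPs EC20 day 7 replicate 2) and was at 0.12 without NiNO3 EC20 day 7 replicate 2. For day 7 minus day 3, contig02990 ran from -0.13 (without Ni-NPs EC20 day 7 replicate 1) to 0.48, contig18692 from -1.07 to 0.15 and GYUW2K401BTC50 from -0.56 to 0.26, the last 2 highest without NiNO3 EC20 day 3 replicate 1. GYUW2K402GK2UM ran from -0.39 to 0.0708 and was above 0 without Ni-NPs EC20 day 3 replicate 3 or replicate 1 of either form at day 7.

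The main fit did not pair arrays by replicate number. The correlation of the deviations of same-numbered NiNO3 EC20 and Ni-NPs EC20 arrays was -0.10, -0.27 and -0.21 at day 3 and 0.46, -0.33 and 0.68 at day 7. For arrays of unlike number it ran from -0.07 to 0.32 at day 3 and from -0.72 to 0.43 at day 7. These values do not settle whether equal numbers mark paired arrays. With the replicate number as a block, 46 probes were higher and 74 lower in NiNO3 EC20 in the mean of the days, in place of 15 and 30, and 0 members were among them.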

Other observations

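For each member, the probe outside the members whose deviations from the condition means over the 30 arrays ran most like its own is described here. This choice was made after the values were seen, and the correlations are descriptions over arrays that the probes share. For contig22777 and GYUW2K402GK2UM the correlation was r = 0.93 (Spearman's rho = 0.88), and r = 0.90 without the 2 arrays farthest from the median. It stood 1.34 and 1.51 above control in NiNO3 EC50 and 0.22 and 0.91 above control in Ni-NPs EC50, at day 3 and at day 7, so it missed the rule at day 7. For contig11979 and contig18692 the correlation was r = 0.83 (rho = 0.60), and r = 0.75 without the 2 farthest arrays. It stood 2.22 and 2.60 above control in NiNO3 EC50 and 0.60 and 0.38 above control in Ni-NPs EC50. The probe closest to GYUW2K401EN8C0 was contig19302, with r = 0.86, which was 0.48 and 0.40 above control in NiNO3 EC50 and 0.42 and 0.28 above control in Ni-NPs EC50. The probe closest to contig16981 was contig07382, with r = 0.83, which was above control by 1.57 and 0.80 in NiNO3 EC50 and by 0.59 and 0.97 in Ni-NPs EC50. GYUW2K401AXJ45, closest to GYUW2K401BTC50 with r = 0.81, was at 0.49 and 0.44 in NiNO3 EC50 and at 0.33 and 0.09 in Ni-NPs EC50. For contig08984, closest to contig02990 with r = 0.79, the differences from control were 0.22 and -0.57 in NiNO3 EC50 and -0.09 and -0.50 in Ni-NPs EC50. None of these 6 probes met the rule. Over all analysed probes, 26 others reached r of 0.8 with GYUW2K401EN8C0, 6 with contig16981, 4 with GYUW2K402GK2UM, 2 each with contig18692 and GYUW2K401BTC50, and 0 with contig02990.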
